A study of Mus musculus with 6 samples.

Results

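A small set of skeletal muscle nuclei was found among the nuclei of subcutaneous mouse tumors. A nucleus was taken as a muscle nucleus when it held 4 or more counts in at least 2 of the 6 genes Ttn, Neb, Myh4, Myh1, Mybpc1 and Ryr1, while the tumor transcripts Hmga2, Mecom and Slit2 together made up under 0.5% of its counts. By this rule, 50 of 18014 nuclei were muscle nuclei (0.278%), and they held 95198 of the counted molecules (unique molecular identifiers, UMIs), 0.115% of all. All other nuclei numbered 17964 and served as the comparison. Because these 9 genes chose the nuclei, their levels are given as a description and were not tested.

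The tumors grew from TC1 cells, a cultured mouse lung epithelial tumor line that did not come from the study's mice. All hosts were C57BL/6 mice of the genotype MCT2loxP/loxP; Cre+, in which tamoxifen-induced Cre removes MCT2 (gene Slc16a7), a transporter of lactate, pyruvate and other monocarboxylates. At 8 weeks of age, KO mice received tamoxifen and CO mice vehicle once daily for 5 days, TC1 cells were injected into the lower right flank 2 days later, and tumors were collected after 24 days. Each group gave 3 libraries of frozen tumor nuclei (CO replicates 1 to 3 and KO replicates 1 to 3). Tamoxifen was given to KO mice alone, so the drug and the deletion cannot be told apart, and the mice behind each library were not stated. The TC1 cells were not subject to the deletion. The Cre strain is given as mCre-Tg, without the promoter that drives it.

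Skeletal muscle fibres are long cells with many nuclei that share a cytoplasm filled with sarcomeres, the repeating units of myosin thick filaments and actin thin filaments that shorten the fibre. Fibres are classed as fast or slow by the myosin heavy chain they make, with Myh4 (type IIB), Myh1 (type IIX) and Myh2 (type IIA) in fast fibres and Myh7 in slow ones. In the mouse flank, thin muscle layers lie directly under the skin, next to where subcutaneous tumors grow. The libraries hold no positions, so where these nuclei lay relative to the tumor was not measured. GEO's labels give the tissue as lung, and of 6 lung epithelial transcripts looked up in all 18014 nuclei, Sftpc, Scgb1a1 and Nkx2-1 had 0 counts, Sftpb 9, Cldn18 62 and Ager 154.

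The files held 18865 barcodes, with library totals between 13252572 and 22057084 UMIs, of which 1790 to 4776 nuclei per library passed the limits of 100 to 7500 genes and under 20% mitochondrial counts. In nuclei other than muscle, Slc16a7 was counted at 8.57, 11.9 and 22.2 CPM in CO (counts of the gene scaled to the summed counts of the same nuclei) and at 16.4, 7.25 and 31.5 CPM in KO, so the groups overlapped and the fitted level was not lower in KO (log2 fold change 0.43 ± 0.54 (SE), edgeR quasi-likelihood adjusted p = 0.738). Of the 17964 other nuclei, 10160 were tumor-marker nuclei (0.5% or more of UMIs in Hmga2, Mecom and Slit2), and TC1 cells were not subject to the deletion. These sums mix host and TC1 nuclei, so loss of Slc16a7 in host cells alone was not tested by them. In the muscle nuclei, only 1 count of Slc16a7 was found, in KO replicate 3. Even in CO replicate 3, the deepest library for muscle nuclei, a count of 0 allows up to 56.7 CPM, above the level in the other nuclei. Loss of Slc16a7 in muscle nuclei was therefore not detectable at this depth, and directions below are given for libraries as labelled.

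Promoters of 4 muscle genes show the DNA that such nuclei read, and motifs stand in capitals: the E-box CAGCTG (MyoD family), the MCAT motif CATTCC (TEAD factors), the MEF2 motif, the CArG box (serum response factor) and TATAAA, the general TATA box. Each line gives the 250 bases before the RefSeq start on GRCm38.p6, on the gene's strand, read 5′ to 3′. Myh4 encodes the leading myosin of these nuclei, Acta1 skeletal actin, Ckm muscle creatine kinase and Trim63 the ubiquitin ligase MuRF1. The windows are chr11:67237562-67237811 (+) for Myh4, chr8:123894776-123895025 (-) for Acta1, chr7:19410844-19411093 (+) for Ckm and chr4:134314870-134315119 (+) for Trim63.
Myh4: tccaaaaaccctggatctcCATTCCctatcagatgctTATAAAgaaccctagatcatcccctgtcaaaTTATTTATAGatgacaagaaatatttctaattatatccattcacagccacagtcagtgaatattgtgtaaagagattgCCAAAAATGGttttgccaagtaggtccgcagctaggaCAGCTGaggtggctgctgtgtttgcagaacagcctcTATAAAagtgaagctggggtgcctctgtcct
Acta1: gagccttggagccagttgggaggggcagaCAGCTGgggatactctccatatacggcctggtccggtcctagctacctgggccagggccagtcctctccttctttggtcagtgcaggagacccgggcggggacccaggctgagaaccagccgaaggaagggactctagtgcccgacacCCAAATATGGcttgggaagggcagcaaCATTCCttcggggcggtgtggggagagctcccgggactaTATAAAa
Ckm: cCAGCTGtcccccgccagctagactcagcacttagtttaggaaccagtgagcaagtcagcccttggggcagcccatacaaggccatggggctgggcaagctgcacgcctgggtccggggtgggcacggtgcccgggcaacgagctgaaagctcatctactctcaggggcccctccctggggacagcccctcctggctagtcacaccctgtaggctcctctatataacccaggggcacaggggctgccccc
Trim63: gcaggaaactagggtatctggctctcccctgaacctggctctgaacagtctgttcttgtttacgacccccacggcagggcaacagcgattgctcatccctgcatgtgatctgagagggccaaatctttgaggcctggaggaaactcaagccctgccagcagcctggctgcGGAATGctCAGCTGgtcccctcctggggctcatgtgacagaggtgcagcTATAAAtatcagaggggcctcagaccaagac
In the Myh4 window, the MEF2 motif overlaps the second of 3 TATAAA matches. Windows of Ryr1, Atp2a1 and Mylpf were also read and are not printed. Ryr1 held 0 of these motifs, and Atp2a1 and Mylpf held 1 CAGCTG each and no other. Of 71 genes on the muscle lists below that were higher in muscle nuclei, 48 had a window in the RefSeq table (67 windows, since some genes have several starts). The 71 leave out the genes of the rule and the atrophy, denervation and lactate lists, so Myh4 and Trim63 are not among them. Searched on both strands, CAGCTG stood in 31.3% of these windows and in 13% of all 32851 windows of the same length. CATTCC stood in 25.4% and 12.6%, the MEF2 motif in 11.9% and 2.92%, the CArG box in 8.96% and 1.47%, and TATAAA in 17.9% and 12.4%. These shares describe letters in a window and were not tested.

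The 6 libraries contributed very unequal numbers of muscle nuclei. CO replicates 1, 2 and 3 held 1 of 3052, 5 of 2997 and 24 of 1790 nuclei, and KO replicates 1, 2 and 3 held 2 of 4776, 5 of 1978 and 13 of 3421. As shares, these were 0.0328%, 0.167% and 1.34% in CO, and 0.0419%, 0.253% and 0.380% in KO. CO replicate 3 alone gave 48% of all members, and its exact 95% binomial interval (0.861% to 1.99%) did not reach those of the other 5 libraries. The mean share was 0.513% ± 0.720 (SD, n = 3) in CO and 0.225% ± 0.171 (SD, n = 3) in KO, a difference smaller than the spread between libraries (two-sided exact permutation test, p = 0.9, where the smallest possible p is 0.1). Without CO replicate 3 the difference changed sign, from -0.289 to 0.125 percentage points. The intervals cover counting error only, and how much muscle was cut out with each tumor was not recorded.

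**Figure D1:**
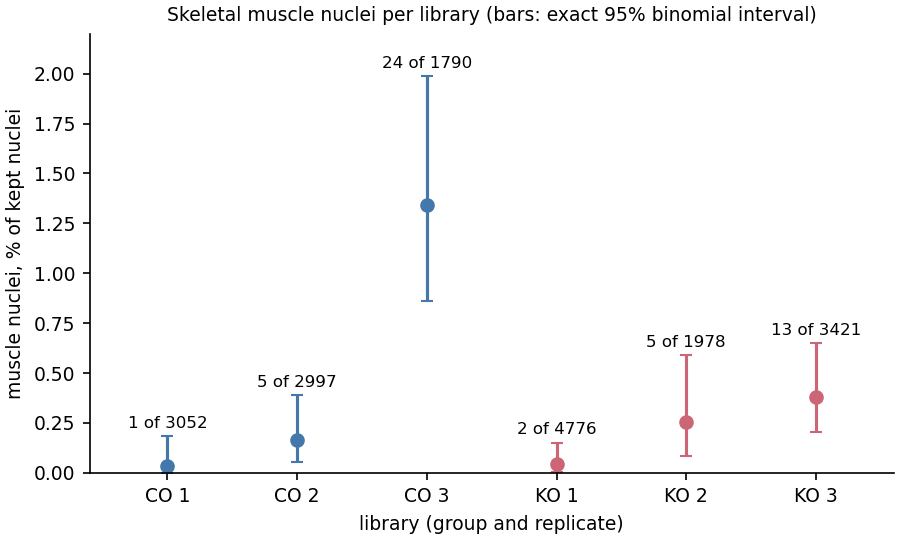
Share of kept nuclei that were skeletal muscle nuclei (y axis, %) in each library (x axis), with exact 95% binomial intervals as bars and the numbers of nuclei above them. CO replicate 3 stands at 1.34% and the other 5 libraries lie between 0.0328% and 0.380%.

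The muscle nuclei held 536 to 5483 UMIs (median 1757.5) and 457 to 2611 detected genes (median 1145.5). Their counts in the 6 marker genes ranged from 7 to 181 with a median of 46, far from the limit of 4. Of the 50 nuclei, 32 held 4 of the marker genes, 13 held 5, 3 held 3, 2 held 2, and none held all 6. Just inside the limit stood 2 nuclei, each with 7 counts, and just outside stood 1 nucleus with 3 counts in 2 genes and 2 nuclei with 4 or 5 counts of Ttn alone. A further 15 nuclei met the count rule but carried tumor transcripts at 0.58% to 2.32% of their UMIs, and their median depth was 9076 UMIs. No barcode of a muscle nucleus recurred in another library, although 48 barcodes of the whole set occurred in more than 1 library. Likely doublets were kept, and removing nuclei with high Scrublet scores as an alternative took 0 of the 50.

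Ttn, which encodes titin, the spring that runs from the Z-disc to the middle of the sarcomere (chr2:76703980-76982547), was counted in all 50 nuclei. In the muscle nuclei of CO replicates 1, 2 and 3 it stood at 2111, 10171 and 15367 CPM, and in those of KO replicates 1, 2 and 3 at 25713, 15815 and 16342 CPM. Outside these nuclei it stood at 1.78 to 14.8 CPM. Ryr1, the calcium release channel of the sarcoplasmic reticulum (chr7:29003344-29125179), was counted in 47 nuclei, at 1583, 3640 and 4461 CPM in CO and 2795, 2875 and 2564 CPM in KO. Of all Ryr1 counts in the kept nuclei, 87.7% lay in the muscle nuclei, against 78.7% for Ttn, 76.1% for Myh4 and 37.3% for Neb (nebulin, which lines the thin filament). Neb was also counted in tumor-marker nuclei, at 13.9 CPM. Whether intronic reads were counted is not given in the sources used here. Per kilobase of gene span, introns included, Myh4 led the markers at 16.1 counts, followed by Ttn at 5.14, Ryr1 at 2.91, Neb at 2.63, Myh1 at 0.816 and Mybpc1 at 0.691. By counts alone, Ttn led with 1433, followed by Neb with 635, Myh4 with 360 and Ryr1 with 355. The order thus depends on the division by span and is not a ranking of abundance.

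The nuclei carried the transcripts of fast fibres. Myh4 (chr11:67238029-67260446) was counted in 42 of the 50 nuclei with 360 counts, Myh1 (chr11:67200052-67224575) in 5 nuclei with 20 counts, Myh2 (chr11:67171027-67197517) in 1 nucleus with 7 counts, and Myh7 in none. Per kilobase of gene span, this gave 16.1, 0.816, 0.264 and 0 counts. Myh4 and Myh1 belonged to the rule and Myh2 and Myh7 did not, so the rule could favour nuclei with Myh4 or Myh1. These myosin counts are therefore a description. Myh4 occurred without Myh1 in 39 nuclei, both occurred in 3, Myh1 alone in 2, and neither in 6. Of the 20 Myh1 counts, 18 lay in KO replicate 3, as did all 7 Myh2 counts. The nucleus with all 7 Myh2 counts and 9 of Myh1 had 9.93% mitochondrial counts. Another, with 4 counts of Myh1, had 17.0%. Both were among the 3 muscle nuclei over 5%. These 3 genes lie side by side on chromosome 11 and share long stretches of sequence, so reads may have been assigned between them with error. The embryonic and neonatal myosins Myh3 and Myh8 had 0 counts.

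Mybpc1, the slow-type myosin-binding protein C, was counted in 14 nuclei, 6 of CO replicate 3 and 8 of KO replicate 3. Myh4 was present in 9 of these 14 nuclei and in 33 of the 36 without Mybpc1, although the nuclei with Mybpc1 were no shallower (medians of 1920.5 and 1600 UMIs). The split came from KO replicate 3, which held all 5 nuclei with Mybpc1 and no Myh4. In CO replicate 3, all 6 nuclei with Mybpc1 also held Myh4. In KO replicate 3, each of the 3 nuclei with Myh1 also held Mybpc1, and the one with 9 counts of Myh1 held all 7 counts of Myh2 and none of Myh4. Both Myh4 and Mybpc1 belonged to the rule, so this split is a description. Other slow-fibre genes were almost absent, with 0 counts of Tnnt1, Tnnc1, Myl3 and Myh7b, 1 count each of Tnni1, Myl2 and Myoz2, and 9 of Casq2. Atp2a2 and Tpm3, which many cells express, gave 12 and 10 of the slow list's 34 counts, against 1375 counts for the 14 fast-fibre genes outside the rule.

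**Figure D2:**
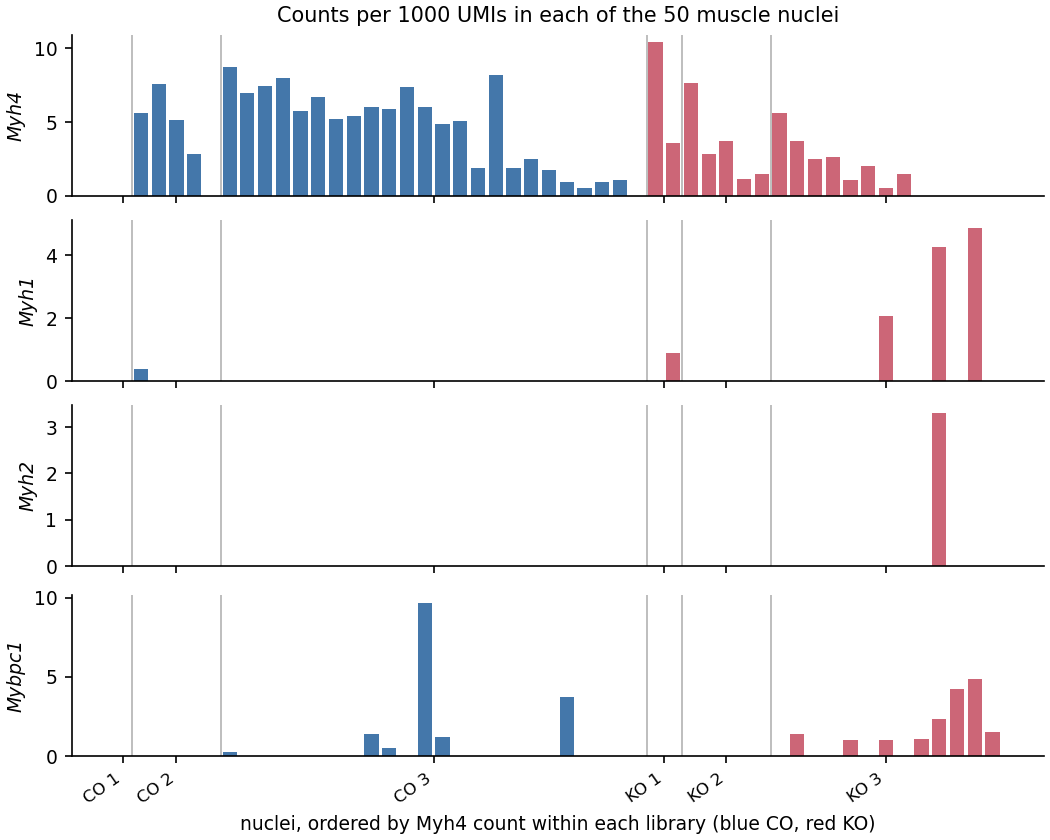
Counts of Myh4, Myh1, Myh2 and Mybpc1 per 1000 UMIs (y axes) in each of the 50 muscle nuclei (x axis), grouped by library, with CO in blue and KO in red. Myh4 is present in 42 nuclei, and Myh1, Myh2 and most Mybpc1 signal in KO replicate 3 falls in nuclei with little or no Myh4.

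To describe the rest of the transcriptome, counts were summed over muscle nuclei and over all other nuclei of the 4 libraries with 5 or more muscle nuclei (47 of the 50) and compared within libraries. Of 11408 genes tested, 1639 (14.4%) passed a log2 fold change of 0.58 and an adjusted p of 0.05, 459 (4.02%) higher in muscle nuclei and 1180 (10.3%) lower. Since the nuclei were picked by muscle transcripts, these calls follow from the choice and are not independent evidence of their identity. The filter on low counts also read the muscle and other sums together. Genes nearly absent elsewhere thus entered through their muscle sums alone and could only come out higher. The tallies and medians per list below are therefore partly set by this filter. The median log2 difference of all genes was -0.93. When libraries were scaled by their totals alone, it was -0.45 and the calls split into 664 higher and 676 lower. The number of calls fell to 1002 without CO replicate 2, 705 without CO replicate 3 and 885 without KO replicate 3. Log2 differences below are muscle minus other nuclei with SE.

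Among genes of the thick filament and its titin partners, 8 of 9 tested were higher, with a median difference of 8.87. Myl1, the fast myosin essential light chain, stood at 7602 and 3516 CPM in CO replicates 2 and 3 and at 1438 and 1521 CPM in KO replicates 2 and 3. It stood at 0.513 to 6.08 CPM in the other nuclei of these libraries, a difference of 9.56 ± 0.57. Myom2 (M-band protein, 9.56 ± 0.63) and Mybpc2 (fast myosin-binding protein C, 9.48 ± 0.58) followed. Of the thin filament and Z-disc list, 14 of 17 tested were higher (median 7.25), led by Pdlim3 (11.47 ± 0.63) and Mypn (myopalladin, 10.63 ± 0.59) of the Z-disc, Xirp2 (9.93 ± 0.60) and Tnnt3 (fast troponin T, 8.68 ± 0.55). Pdlim3 was counted in 43 nuclei, and 88.3% of its counts lay in the muscle nuclei. Pdlim5, at 1.02 ± 0.45, and Tpm3, at -1.49 ± 0.62, did not pass, but Pdlim5 passed at 1.66 with library totals and at 1.10 with DESeq2 size factors, and Tpm3 was called lower in 4 alternatives. The Z-disc genes Myot (66 counts in muscle nuclei) and Tcap (36 counts) did not pass the filter on low counts and were not tested. That filter asks for a minimum level in enough of the muscle and other sums. Genes expressed in many cells can therefore pass it with fewer muscle counts.

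Genes that link the electrical signal to calcium release were higher in 15 of 18 cases (median 5.86). Cacna1s, the voltage sensor of the transverse tubule, stood at 321 and 113 CPM in CO replicates 2 and 3 and at 160 and 478 CPM in KO replicates 2 and 3, with 0 to 0.141 CPM in the other nuclei (11.07 ± 0.75). Trdn (triadin, which anchors calsequestrin at the release channel, 10.06 ± 0.58), Pvalb (the calcium buffer parvalbumin, 10.28 ± 0.77) and Atp2a1 (the fast-fibre calcium pump, 9.43 ± 0.55) were also higher. The pump of slow fibres, Atp2a2, was not (-1.45 ± 0.57, and called lower in 4 alternatives). The channel subunit Cacna2d1 did not pass (0.68 ± 0.41) but did at 1.38 with library totals. The inhibitor of the calcium pump sarcolipin (Sln) was counted 61 times in 13 nuclei.

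In energy metabolism, 10 of 14 genes were higher (median 3.46). Ckm (8.88 ± 0.54), the phosphorylase kinase subunit Phkg1 (8.71 ± 0.54), the AMP deaminase Ampd1 (7.98 ± 0.57) and the muscle glycogen phosphorylase Pygm (7.34 ± 0.50) led. Aldoa, a glycolytic enzyme found in many cells, did not pass (0.97 ± 0.48) except with library totals, at 1.56. Of 8 genes for lactate and pyruvate handling, only Mpc1, a subunit of the mitochondrial pyruvate carrier, passed. It stood at 107 and 265 CPM in CO and 320 and 217 CPM in KO muscle nuclei, against 24.8 to 36.0 CPM in the other nuclei of the same libraries (2.33 ± 0.51). The call on Mpc1 was lost without CO replicate 3 (1.82) and with no limit on tumor transcripts (1.16). Ldha, which converts pyruvate to lactate, did not pass (0.43 ± 0.49), and Slc16a7 itself had a fitted value of -1.39 ± 1.36 from 1 count.

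The dystrophin complex joins the sarcomere to the membrane and matrix. On a list of this complex and other genes of that link, 10 of 14 tested were higher (median 3.99). They included Dmd (dystrophin, 8.77 ± 0.55, counted in 48 nuclei), Des (desmin, 8.21 ± 0.52) and the protease Capn3 (5.99 ± 0.58). Utrn, the dystrophin relative utrophin, was lower (-2.37 ± 0.52). Dag1 did not pass (0.96 ± 0.50) except with library totals, at 1.57, and the stricter filter on nuclei, at 1.65. The stricter filter left CO replicate 3 and KO replicate 3 alone in the fit. Among muscle regulators, 10 of 16 were higher (median 4.44), with the splicing factor Rbm20 (9.90 ± 0.55), which acts on titin transcripts, Prr33 (9.66 ± 0.62), Kbtbd12 (8.24 ± 0.56) and Sox6 (8.73 ± 0.54), a repressor of slow-fibre genes that was counted in 44 nuclei. Myod1 had 0 counts, Myf5 1, Myog 2 and Myf6, the member of that family kept in mature fibres, 16.

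**Figure D3:**
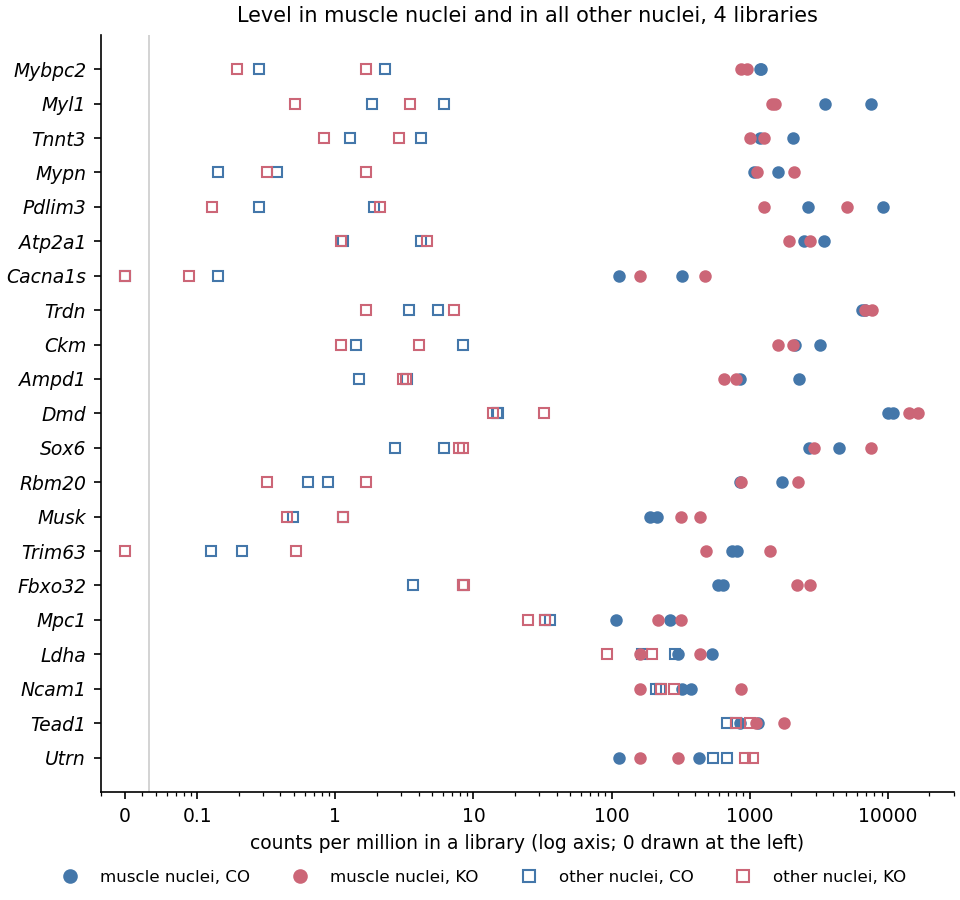
Level of 21 genes (CPM, log axis, 0 drawn at the left) in muscle nuclei (filled circles) and in all other nuclei (open squares) of the 4 libraries with 5 or more muscle nuclei, with CO in blue and KO in red. From Mybpc2 to Fbxo32 the muscle nuclei of every library lie above the other nuclei of all 4, whereas for Ldha, Ncam1 and Tead1 the sets overlap.

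Genes of the specialised ends and contacts of the fibre differed among themselves. At the neuromuscular junction, where the nerve meets the fibre, Musk (receptor kinase of the synapse) was counted 25 times in 16 nuclei and was higher than elsewhere (7.75 ± 0.61). Its partner genes were low, with 0 counts of Chrne, 5 of Chrna1 (1.89 ± 0.87, passing only with library totals, at 2.37) and 4 of Dok7, and Chrnb1 passed at 2.11 ± 0.65. Etv5 was lower (-2.49 ± 0.83). The Chrnb1 call was lost without CO replicate 2, CO replicate 3 or KO replicate 2, and the Etv5 call without any 1 of the 4 libraries and with library totals. Col22a1, the defining collagen of the myotendinous junction, had 0 counts, while Ankrd1 and Adamts20 were higher (5.42 ± 0.55 and 6.51 ± 0.65). Ankrd1, a stretch-responsive gene, stood at 1071 and 37.8 CPM in CO replicates 2 and 3 and at 0 and 522 CPM in KO replicates 2 and 3, so it varied between libraries of the same group.

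Genes of muscle wasting were present. Trim63 was counted in 27 nuclei, at 749 and 813 CPM in CO replicates 2 and 3 and at 479 and 1391 CPM in KO replicates 2 and 3, with 0 to 0.522 CPM in the other nuclei (11.29 ± 0.68). Fbxo32, the second of the muscle ubiquitin ligases (atrogin-1), stood at 642 and 586 CPM in CO and 2716 and 2217 CPM in KO (6.80 ± 0.51). Both ligases are also made in resting muscle, and no muscle away from a tumor was measured here. Of 20 genes tested on the atrophy list, Nnmt (2.59 ± 0.74) and Fbxo31 (2.32 ± 0.67) were the other higher ones, 15 did not pass, and Foxo3 was lower (-2.68 ± 0.71). The Nnmt and Fbxo31 calls rested on 8 and 10 counts, and both were lost without CO replicate 2 or without CO replicate 3, with Fbxo31 lost also without KO replicate 2. The list's median was -0.08, whereas the median of all genes was -0.93. With genes at 0 counts set to the limit of 3 counts (2 on this list), these medians were 0.51 and -0.31. That limit was scaled by library totals, unlike the fitted differences, so the latter medians mix 2 scalings. Of the genes switched on in denervated, immature or regenerating fibres, 7 of 13 had 0 counts and 3 of 4 tested did not pass. Among these was Ncam1 at 0.42 ± 0.47, though it passed at 1.33 with the stricter filter on nuclei. That filter left CO replicate 3 and KO replicate 3 alone in the fit. Gadd45a passed on 6 counts (2.80 ± 0.86), a call lost without CO replicate 3, KO replicate 2 or KO replicate 3.

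On none of the lists were 10 further genes with the largest differences and at least 20 counts: Klhl31 (11.29 ± 0.73), Prkag3 (10.55 ± 0.61), Mlip (10.46 ± 0.58), Nrap (10.27 ± 0.54), Slc38a4 (10.18 ± 0.71), Smpx (10.07 ± 0.65), Trim55 (9.85 ± 0.65), Ano5 (9.82 ± 0.61), Art1 (9.80 ± 0.70) and Tmem233 (9.80 ± 0.54). Prkag3 is the glycolytic-muscle subunit of the AMP-activated kinase, Trim55 (MuRF2) a relative of MuRF1, and Nrap a protein of growing myofibrils. For Klhl31, 91.9% of all counts lay in the muscle nuclei.

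The 3 tumor genes of the rule had 82 counts in 31 muscle nuclei, under its limit in each. Markers of other cell types gave fewer counts. Of the muscle nuclei, 2 held 4 or more counts in at least 2 macrophage markers. All 5 cardiac markers (Myh6, Ryr2, Nppa, Myl7 and Nppb) had 0 counts, and the satellite cell markers gave 1 count of Pax7 in all. Macrophage markers summed to 18 counts in 10 nuclei (Adgre1, Fcgr1 and Cd163 at 0), endothelial markers to 10 in 8 nuclei (Cdh5 and Ptprb at 0), fibroblast markers to 11 in 8 nuclei (Lum, Dpt and Col15a1 at 0), T/NK markers to 3, Schwann markers to 2 and red cell markers to 11. As levels, the Schwann and red cell lists were not lower in muscle nuclei, with Schwann markers at 21.0 CPM in muscle nuclei and 14.8 CPM in the others, and red cell markers at 116 and 57.8 CPM, with none of their genes called. Of these lists, 7 genes were called and all were lower: Adgre1, Skap1 and the satellite cell marker Pax3 with 0 counts, Ptprc (-2.94 ± 0.72), Mertk (-5.17 ± 0.97), Flt1 (-2.01 ± 0.68) and Pdgfra (-3.16 ± 0.60). The Flt1 call was lost with library totals and without each of the 4 libraries in turn, and with no limit on tumor transcripts Flt1, Mertk and Pdgfra differed by -0.21, -1.23 and -0.92 and none of them passed. A single gene of each of 3 lists was higher while its partners were at or near 0. Plin4 (5.03 ± 0.70) came with 0 counts of Adipoq, Plin1 and Cidec, Abcc9 (6.59 ± 0.58) with 0 counts of Myh11, Myocd and Rgs5, and Trp63 (9.31 ± 0.60) with 0 counts of Krt5 and Krt14. Trp63, which encodes p63, a factor of skin and other epithelia (chr16:25683763-25892102), had 36 counts in 19 nuclei, at 749 and 340 CPM in CO replicates 2 and 3 and 320 and 348 CPM in KO replicates 2 and 3. Abcc9 encodes a subunit of the ATP-sensitive potassium channel that muscle also uses, and Plin4 a lipid droplet protein also made in muscle.

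Mitochondrial transcripts, which lie outside nuclei, were low in the muscle nuclei. Their median share of UMIs was 0.211%, 0.505% and 0.207% in CO replicates 1, 2 and 3 and 0.386%, 0.669% and 0.767% in KO replicates 1, 2 and 3. The medians of the other nuclei were 6.81%, 4.16% and 1.37% in CO and 6.29%, 3.86% and 0.896% in KO, higher in 6 of 6 libraries. With no limit on tumor transcripts, they were higher in 4 of 6, since the muscle medians of CO replicate 1 and KO replicate 3 then stood at 7.06% and 1.31%. Over the 4 libraries with 5 or more muscle nuclei, the difference was -2.03 ± 1.67 percentage points (SD, n = 4, two-sided exact paired permutation test, p = 0.125, the smallest that 4 pairs allow). Individually, 41 of the 50 nuclei were under 1% and 3 were over 5%, with the highest, 17.0%, in KO replicate 3.

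The comparison of KO with CO within muscle nuclei asked whether the host's muscle differed after MCT2 deletion. It used CO replicates 2 and 3 (5 and 24 nuclei) and KO replicates 2 and 3 (5 and 13 nuclei). Of 232 genes with enough counts, 2 (0.862%) passed, and 21 had an unadjusted p under 0.05. The filter on low counts read both groups together, so a gene could enter through its high group alone. Of the genes that passed, Ppp1r27 entered through CO and Pcdh7 through KO. Each could therefore come out in that direction only. With no filter on low counts, 0 of 9810 genes passed. In 34.9% of the genes the 2 groups did not overlap.

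Ppp1r27, which encodes a dysferlin-interacting regulator of protein phosphatase 1 (chr11:120549979-120551132, - strand), was lower in the libraries labelled KO. It had 30 and 62 counts in CO replicates 2 and 3 and 0 and 1 counts in KO replicates 2 and 3. This corresponds to 3212 and 1172 CPM against 0 and 43.5 CPM, with no overlap (log2 fold change -5.84 ± 1.10, edgeR adjusted p = 0.0145). By counts alone, the CO level was 43.3 times the KO level, with an exact 95% counting interval of 7.57 to 1727. It was found in 3 of 5 and 14 of 24 nuclei in CO and in 0 of 5 and 1 of 13 in KO, but 27 of the 30 counts of CO replicate 2 came from 1 nucleus. Neither of the remaining libraries, with 1 and 2 muscle nuclei, held a count.

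Pcdh7, a protocadherin of cell contacts (chr5:57717967-58133230), was higher in the libraries labelled KO, with 1 and 9 counts in CO and 18 and 28 in KO. The levels were 107 and 170 CPM against 2875 and 1217 CPM, again with no overlap (3.48 ± 0.73, edgeR adjusted p = 0.0220). Pcdh7 is abundant in tumor-marker nuclei (5965 CPM). The summed level of all 3 tumor genes in the muscle nuclei was 107 and 359 CPM in CO and 2396 and 2043 CPM in KO, so it moved with Pcdh7, and its part in the difference was not tested. With no limit on tumor transcripts, Pcdh7 differed by 0.32.

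Neither call was stable. Both were lost without CO replicate 2 (edgeR adjusted p = 0.999 for each, with Ppp1r27 at -5.00 and Pcdh7 at 3.24), without CO replicate 3 (-6.26 and 3.91), with no filter on low counts, with either other limit on tumor transcripts and with scaling by library totals (edgeR adjusted p = 0.0552 and 0.0607). The Pcdh7 call was also lost without KO replicate 2 (2.98) and with DESeq2. Over the alternatives, the adjusted p ranged from 0.00276 to 0.999 for Ppp1r27 and from 0.00745 to 1 for Pcdh7. Without KO replicate 3, 10 genes passed.

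The next genes in order of p, singled out after their values were seen, did not pass. Fgfr2, a fibroblast growth factor receptor, had 24 and 262 counts in CO and 3 and 19 in KO (-2.52 ± 0.67, edgeR adjusted p = 0.0949), yet the 2 nuclei of KO replicate 1, outside this fit, held 12 counts, or 6708 CPM, above both CO libraries. F830016B08Rik (-3.16 ± 0.83), Lrmda (2.25 ± 0.63) and Tenm3 (2.52 ± 0.76) had edgeR adjusted p-values of 0.0949, 0.0969 and 0.141. Of the muscle lists, 0 genes passed among 5 of the thick filament, 10 of the thin filament and Z-disc, 7 of calcium release, 6 of energy metabolism, 5 of the dystrophin complex, 10 regulators and 3 of atrophy. The 7 fast-fibre genes had a median of -0.50, beside -0.02 for all genes tested. Myl1, at the levels given above, differed by -2.02 ± 0.56 without overlap of the 2 libraries a group in this fit (edgeR adjusted p = 0.0969). The 2 nuclei of KO replicate 1 stood at 8385 CPM, above both CO libraries, and the single nucleus of CO replicate 1 at 0. Likewise, the summed fast-fibre list was highest in KO replicate 1, at 24595 CPM, beside 17987 and 15896 CPM in CO replicates 2 and 3 and 9105 and 11431 CPM in KO replicates 2 and 3. Fbxo32, at the levels given above, was at 1.88 ± 0.66 (edgeR adjusted p = 0.224), and Trdn differed by only -0.02 ± 0.30.

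**Figure D4:**
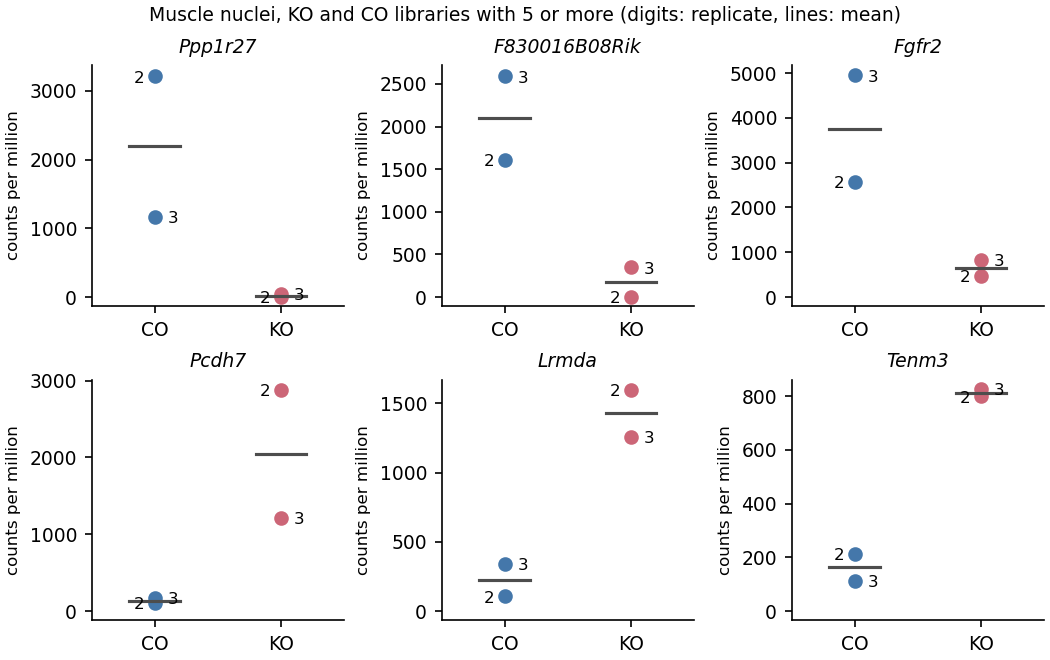
Level (CPM, linear axes) of the 3 genes with the smallest p in each direction in the muscle nuclei of CO replicates 2 and 3 and KO replicates 2 and 3, with digits for replicates and lines for group means. Ppp1r27 lies at 3212 and 1172 CPM in CO and at 0 and 43.5 CPM in KO, and Pcdh7 at 107 and 170 CPM in CO and at 2875 and 1217 CPM in KO.

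Muscle transcripts were also found outside the muscle nuclei, in amounts that differed by library. The 14 fast-fibre genes together stood at 14444 CPM in muscle nuclei and at 16.4 CPM in all other nuclei. In those other nuclei, they summed to 8.37, 15.5 and 36.0 CPM in CO and to 11.6, 9.62 and 31.4 CPM in KO. The 2 libraries with the most muscle nuclei, CO replicate 3 and KO replicate 3, thus had the highest levels in nuclei that were not muscle. The other nuclei include the 15 that met the count rule but exceeded the limit on tumor transcripts, most of them from these 2 libraries. Whether those nuclei or free RNA from muscle account for these counts was not tested. In macrophage-marker nuclei, which should lack these transcripts, the sums were 9.72, 25.4 and 54.0 CPM in CO and 10.0, 42.2 and 32.8 CPM in KO. Here CO replicate 3 was again highest, but KO replicate 2 stood above KO replicate 3. The KO replicate 2 sum came from 158 macrophage-marker nuclei, beside 691 in KO replicate 3, and counting error in this order was not assessed. For skeletal actin, Acta1 stood at 0.260, 5.15 and 14.8 CPM in CO and 0.506, 1.09 and 9.75 CPM in KO. Only 41.1% of the Acta1 counts lay in the muscle nuclei.

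A comparison of all other nuclei between KO and CO (3 libraries each, 13656 genes, 0% called) therefore holds muscle transcripts in proportions that vary within both groups. None of the 9 fast-fibre genes tested passed. Ckm stood at 0.130, 1.41 and 8.36 CPM in CO and 0, 1.09 and 4.01 CPM in KO (-0.85 ± 1.49, edgeR adjusted p = 0.808), and Myl1 differed by -0.72 ± 1.05. At an unadjusted p under 0.05 stood 661 of the 13656 genes, and 13 passed with DESeq2.

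**Figure D5:**
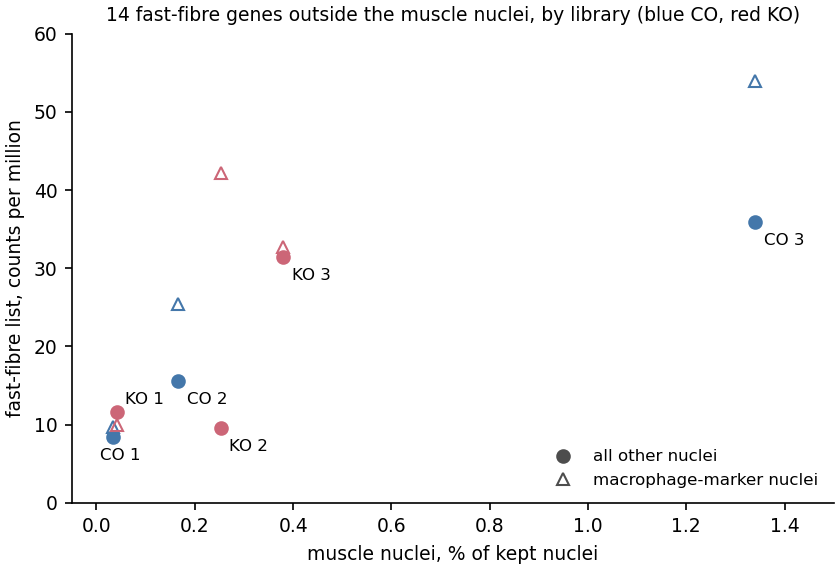
Summed level of the 14 fast-fibre genes (y axis, CPM) in all other nuclei (circles) and in macrophage-marker nuclei (triangles) against the share of muscle nuclei (x axis, %) in each library, with CO in blue and KO in red. CO replicate 3 and KO replicate 3, with shares of 1.34% and 0.380%, hold 36.0 and 31.4 CPM in their other nuclei.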

How the data were processed

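Single-nucleus RNA of 6 frozen tumors (10x 3′ v3.1) was analysed from the deposited matrices of whole counts of UMIs per gene and barcode. Per the labels, the authors aligned to GRCm38 with Cell Ranger 3.0.2 (the file headers name 3.1.0). The study describes SoupX and scDblFinder, yet the deposited counts are whole and doublets were not removed here. Extra washes were given to selected samples, not named. The members and lists were chosen with earlier results of these data known.

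Counts were summed per library over muscle and over other nuclei. Libraries were the replicates, and p-values measure the spread between them. The test was edgeR 4.0.16 (quasi-likelihood, TMM, filterByExpr, Benjamini-Hochberg), with library as a block for muscle against other nuclei. Genes of the rule were fitted and not counted. CPM were raw counts over the summed counts of the same nuclei in a library. In each of 25 lists, up to 4 called genes with the largest difference and up to 2 not passing could be named, with 10 unlisted genes, and for KO against CO the called genes. Alternatives covered the rule, filters, Scrublet doublets, scaling, DESeq2 1.42.0 and each library left out. Gene positions are from GENCODE vM21, and the tests were tested on simulated data. Some results are not reported here.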

Additional observations from a re-analysis of the deposited data

Results flagged for a closer look

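Of the 851 barcodes removed by the limits on genes and mitochondrial counts, 2 met the rule for muscle nuclei. The first, in CO replicate 2, held 153 marker counts among 7233 UMIs (85 of Ttn, 32 of Neb and 26 of Myh4), with 73.7% mitochondrial counts. The second, in CO replicate 3, held 117 marker counts among 2632 UMIs (74 of Myh4), with 39.1% mitochondrial counts. They were singled out because they lie outside the nuclei compared and exceed the 3 counts that a count of 0 allows.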

How the results depend on the processing

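The share difference (KO minus CO) kept its sign in 16 of 17 alternatives and ranged from -0.529 to 0.125 percentage points over left-out libraries, positive without CO replicate 3 alone. The mitochondrial difference stayed negative in all 14 alternatives, from -0.382 with the stricter filter on nuclei to -4.54 pooled over libraries, and had p = 0.03125 (exact permutation test) at -3.44 percentage points when libraries with 1 or more muscle nuclei entered, an alternative chosen after seeing the data, as were TMMwsp and library totals. Called genes of muscle against other nuclei numbered 422 with no tumor-gene limit, 1033 with a limit of 0.25%, 945 with the stricter filter on nuclei, 2526 with libraries of 1 or more muscle nuclei, and 705 to 1162 over left-out libraries. The limit of 0.25% also took out KO replicate 2 (3 muscle nuclei), leaving KO replicate 3 alone for KO against CO in muscle nuclei. The stricter filter left CO replicate 3 and KO replicate 3 alone, also for the mitochondrial difference. Filter and lost libraries cannot be told apart there. KO against CO in muscle nuclei gave 0 calls with no tumor-gene limit, library totals, no filter on low counts or libraries with 1 or more muscle nuclei, 1 with DESeq2 (Ppp1r27) or a tumor-gene limit of 0.25% (neither Ppp1r27 nor Pcdh7), and 0 to 10 over left-out libraries, where an arm of 1 library is assumed to vary like the other. Under the stricter filter on nuclei this comparison could not be fitted, since CO replicate 2 and KO replicate 2 fell to 4 muscle nuclei. In other nuclei DESeq2 called 13 genes. The replicate numbers did not pair the libraries (correlations of 0.475, -0.264 and 0.354 for same numbers), and with a replicate block KO against CO gave 0 calls in muscle nuclei, 0 in other nuclei, and p = 1 for the share. Sign changes of genes that did not pass were Ncam1 (-0.0027 with DESeq2, called at 1.33 with the stricter filter, -0.10 to 0.75 over left-out libraries, lowest without KO replicate 3) and Ldha (-0.025 with no tumor-gene limit, -0.13 with libraries of 1 or more muscle nuclei) in muscle against other nuclei, and Ckm (-2.36 to 1.15) and Myl1 (-1.95 to 0.54), positive without CO replicate 3, and Slc16a7 (-0.013 with the stricter filter, -0.17 to 0.87 over left-out libraries, negative without KO replicate 3) in KO against CO of other nuclei; the cause was not tested. DESeq2 left 3984 adjusted p-values undefined in muscle against other nuclei. Depth limits the muscle nuclei, with 1789 to 52906 UMIs per library.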
